A study of Mus musculus with 3 samples.

Results

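The Fc gamma and scavenger receptors of mouse peritoneal macrophages are described here across hexavalent chromium doses. Members were chosen by gene symbol: Fcgr1, Fcgr2b, Fcgr3, Fcer1g, Msr1, Marco, Scarb1, Cd5l and Clec7a. These 9 genes had 16 probes, of 14562 genes with a probe well above background on at least 1 array and 41174 probes in all. RNA from cells labelled as peritoneal macrophages was hybridised to 3 one-colour Agilent arrays, 1 for each group, so no difference has a replicate check and no test was possible. Every animal was a male Swiss albino mouse aged 8 weeks, in groups of 10, and every animal received 125 µg of lipopolysaccharide, the bacterial endotoxin that draws macrophages into the peritoneum, on day 0. All groups, the control included, then received 100 ng of the phorbol ester TPA into the peritoneum on day 4. The control group received TPA alone, and the other groups received it together with 35 or 70 nmol of potassium dichromate. Cells were washed out 4 days later. The sample labels give the same doses as Cr(VI), and whether 1 mouse or a pool of mice gave the RNA of an array is not stated in them. Lipoic acid, which the series title names, was on none of these arrays.

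Macrophages bind antibody-coated particles through Fc gamma receptors. Activating receptors signal through the shared adaptor Fcer1g, whose tyrosine motif recruits the kinase Syk, and the inhibitory receptor Fcgr2b recruits the phosphatase Inpp5d to oppose them. Scavenger receptors (Msr1, Marco, Scarb1) bind modified lipoproteins and microbial surfaces without antibody. Clec7a, also called Dectin-1, is a lectin that binds fungal beta-glucan, and Cd5l is a secreted protein of the scavenger receptor cysteine-rich family made by tissue macrophages.

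The promoters of 3 Fc gamma receptor genes are shown because these genes had unlike values in the comparisons that follow. Each window runs from 250 bases before to 50 bases after the gene's start, from RefSeq on build GRCm38.p6, 5′ to 3′ on the gene's strand. Capitals mark matches to TTCNNNGAA, the gamma-activated site to which STAT factors bind, and to GAGGAA on either strand, a core of sites for the macrophage factor PU.1. The windows are Fcgr1 at chr3:96293920-96294219, Fcgr2b at chr1:170976022-170976321 and Fcgr3 at chr1:171059345-171059644, all on the minus strand.
Fcgr1: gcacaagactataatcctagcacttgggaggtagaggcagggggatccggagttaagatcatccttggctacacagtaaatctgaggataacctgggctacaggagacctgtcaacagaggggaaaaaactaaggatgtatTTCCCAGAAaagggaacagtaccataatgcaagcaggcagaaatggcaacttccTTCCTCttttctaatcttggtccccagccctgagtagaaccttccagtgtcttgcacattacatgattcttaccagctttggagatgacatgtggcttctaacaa
Fcgr2b: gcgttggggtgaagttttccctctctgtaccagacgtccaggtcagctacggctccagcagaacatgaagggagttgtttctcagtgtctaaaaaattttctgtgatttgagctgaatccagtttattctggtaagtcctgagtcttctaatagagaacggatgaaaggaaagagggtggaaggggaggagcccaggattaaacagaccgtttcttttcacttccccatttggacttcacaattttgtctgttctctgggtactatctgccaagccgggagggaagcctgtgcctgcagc
Fcgr3: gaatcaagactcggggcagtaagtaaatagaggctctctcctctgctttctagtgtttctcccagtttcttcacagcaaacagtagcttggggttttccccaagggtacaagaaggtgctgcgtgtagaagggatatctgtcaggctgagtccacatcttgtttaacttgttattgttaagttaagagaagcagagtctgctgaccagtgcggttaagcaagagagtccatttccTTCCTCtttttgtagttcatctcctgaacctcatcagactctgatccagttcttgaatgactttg
Fcgr1 held the gamma-activated letters TTCCCAGAA starting 109 bases before its start and TTCCTC starting 55 bases before it. Fcgr3 held TTCCTC starting 15 bases before its start. The Fcgr2b window held no match to any of the motifs searched.

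Of the 9 members, 7 had a promoter in the table, with 9 windows. The member counts here are of genes, and a gene counts where any of its windows holds a match. The shares beside them are of windows, so the units differ. The gamma-activated letters were in the windows of 1 of the 7, Fcgr1, and in 8.30% of all 32851 windows of the table. GAGGAA was in 5 of the 7 (Fcgr1, Fcgr3, Marco, Cd5l and Clec7a) and in 28.3% of all windows. The interferon-stimulated core (GAAA, 2 bases of any kind, GAAA) was in 0 of the 7 and in 3.44% of all windows. The related receptor gene Fcgr4 held it, starting 73 bases before its start. The AP-1 letters TGANTCA, the type of site that phorbol esters are known for, were in 0 of the 7 and in 7.81% of all windows. Both strands were searched, and no listed match overlapped another. These are matches of letters, and binding was not measured.

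**Figure D1:**
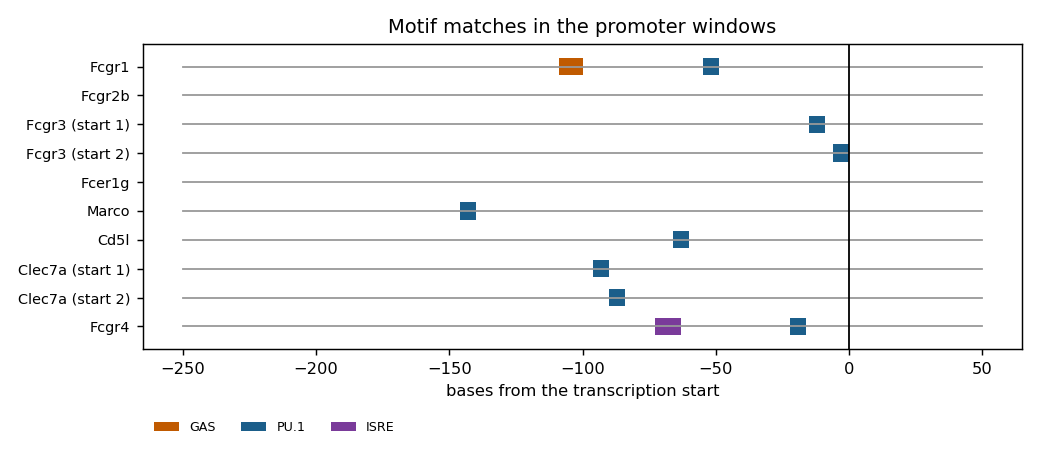
Motif matches in the promoter windows of the members and of Fcgr4. The horizontal axis is the distance from the transcription start in bases, each grey line is 1 window, and coloured blocks are matches on either strand. The gamma-activated block lies only in Fcgr1 among these windows, and Fcgr2b and Fcer1g have no block.

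The level of a probe is its log2 processed signal minus the array's 75th percentile, so 0 is the 75th percentile of the array. The percentile was 8.07 in the control, 7.69 at 35 nmol and 7.74 at 70 nmol. Of all probes, 20200 (49.1%), 18907 (45.9%) and 18564 (45.1%) were well above background in the same order, and all 16 probes of the members were so on every array. Repeated spots of a probe had a median SD of 0.034 to 0.043 within an array. The scanner software's own error of a difference between 2 arrays was about 0.204 for each member's probe. Neither error holds the spread between animals. All 3 arrays lay on 1 slide that was scanned once, so slide position and group cannot be told apart. Scaling on spike-in RNA instead of the 75th percentile subtracted 0.36 from every difference at 70 nmol and 0.42 from every difference at 35 nmol, against the control, and added 0.06 between doses.

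All 8 macrophage markers listed were well above background on each array, Fcgr1 among them. The summed signal of those that are not members (in multiples of the array's 75th percentile, saturated Lyz2 left out) was 430 in the control, 427 at 35 nmol and 360 at 70 nmol. The brightest gene weighs most in such a sum, and here it was Adgre1, with a difference of -0.51 at 70 nmol. Of these 6 markers, 3 were above the control at 70 nmol and 1 at 35 nmol, with a median difference of -0.03 at each dose. Markers of large peritoneal macrophages, the resident cells, summed to 409, 377 and 233, and 5 of 10 measured were at least 2-fold lower at 70 nmol than in the control. Those of monocytes and small peritoneal macrophages summed to 245, 244 and 225 without saturated Cd74. Of 6 measured, 5 were above the control at 70 nmol and 3 at 35 nmol, with medians of 0.21 and 0.01. The brightest of them, Fn1, differed by -0.25 at 70 nmol. Mast cell markers (6 of 8 above background, Ms4a2 and Tpsab1 not) summed to 24.4, 13.5 and 7.54. B cell markers (10 of 10 above background) summed to 287, 274 and 226 without saturated Ighm. Fibroblast markers (6 of 6 above background on at least 1 array) summed to 9.59, 10.9 and 32.7. Hepatocyte markers other than Scarb1 summed to 20.4, 59.9 and 0.409, with 8, 9 and 1 of 10 well above background (Ttr on no array). Neutrophil markers (6 of 10 above background) summed to 10.2, 7.29 and 14.8, but went both ways, with 4 of the 6 above the control at 70 nmol and 3 at 35 nmol. Red cell markers (5 of 7 above background) summed to 93.4, 16.3 and 53.2, and all 5 were at least 2-fold lower at 35 nmol than in the control. In bulk RNA, fewer cells of a type and less RNA per cell cannot be told apart. What part these markers have in the differences below was not tested.

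Fcgr1, the high-affinity receptor for monomeric IgG, had the largest difference of any member's gene value against the control, and it was at 70 nmol. Its brighter probe (A_51_P296755, chr3:96368314-96368360, build mm8) had levels of 4.57 in the control, 4.90 at 35 nmol and 5.33 at 70 nmol. Its other probe (A_52_P47846, chr3:96369880-96369943) had levels of 0.45, 0.75 and 1.20. Both probes were thus lowest on the control array and highest at 70 nmol. At 70 nmol the brighter probe was higher than in the control by 0.76 (log2, scanner error 0.204), a 1.69-fold difference, and the other probe by 0.76. At 35 nmol the differences from the control were 0.34 (1.26-fold) and 0.31. With spike-in scaling the sign turns on both probes at 35 nmol, and the brighter probe differed by -0.08. Between doses the brighter probe was 0.42 higher at 70 than at 35 nmol, and the other 0.45. Of all measured genes, 3.13% had a higher difference than Fcgr1 at 70 nmol against the control, and 8.31% at 35 nmol.

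Fcgr3, the low-affinity activating receptor of macrophages and neutrophils, differed from the control by less than the scanner error on its brighter probe at both doses. That probe (A_51_P328613, chr1:172888191-172888266) had 7.07 in the control, 7.07 at 35 nmol and 6.92 at 70 nmol. Its other probe (A_52_P408757, chr1:172890673-172890732) had 4.75, 4.69 and 4.50. Both probes were lowest at 70 nmol, where they differed from the control by -0.14 and -0.25, the first within the scanner error and the other past it. At 35 nmol the differences were 0.01 and -0.06, both smaller than the scanner error. With cyclic loess normalisation the gene's differences were -0.31 at 70 nmol and -0.17 at 35 nmol, and with spike-in scaling -0.50 and -0.41. Neutrophil markers summed to 14.8 at 70 nmol and 7.29 at 35 nmol, against 10.2 in the control, and their part was not tested. These markers went both ways. Of 6 measured, 3 were at least 2-fold higher and 1 lower at 70 nmol, and 1 higher and 2 lower at 35 nmol. Fcgr3 belongs to a cluster of related genes that includes Fcgr2b and Fcgr4, and cross-hybridisation between them was not tested.

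Fcer1g encodes the signalling chain that Fcgr1 and Fcgr3 need at the surface, and that the mast cell IgE receptor shares. The probe A_51_P405476 (chr1:173066338-173066397) had levels of 6.79 in the control, 6.72 at 35 nmol and 6.91 at 70 nmol. The probe A_51_P405478 (chr1:173066390-173066462), which overlaps it, had 5.71, 5.74 and 5.93. Both were highest at 70 nmol, by 0.12 and 0.22 against the control and by 0.19 and 0.20 against 35 nmol. With spike-in scaling both probes were below the control at 70 nmol, the first by a difference of -0.24. At 35 nmol against the control the probes differed by -0.07 and 0.02, in opposite directions and below the scanner error. The summed mast cell markers were lower at both doses (7.54 at 70 nmol and 13.5 at 35 nmol, against 24.4 in the control), and their part in the Fcer1g level was not tested.

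Fcgr2b, the inhibitory Fc gamma receptor, was higher than in the control at both doses on all 3 of its probes, with 75th percentile and spike-in scaling alike. The probe A_51_P130095 (chr1:172797532-172797591) was printed in 10 spots, and its level was 2.45 in the control, 3.14 at 35 nmol and 2.99 at 70 nmol, with SDs between its spots of 0.039, 0.033 and 0.018. The probe A_51_P130101 (chr1:172797671-172797730) had 2.00, 2.53 and 2.56, and the probe A_52_P545613 (chr1:172802377-172802436) had 0.32, 1.12 and 1.15. On each probe the control array was lowest, and the chromate arrays lay within 0.15 of each other.

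Against the control, the 3 Fcgr2b probes differed by 0.69, 0.53 and 0.81 at 35 nmol, the first a 1.61-fold difference. At 70 nmol they differed by 0.54, 0.56 and 0.84, the first a 1.45-fold difference. Of all measured genes, 2.23% had a higher difference than Fcgr2b at 35 nmol, and 6.43% at 70 nmol. The 70 and 35 nmol arrays differed by -0.15, 0.03 and 0.03, which is within the scanner error. With spike-in scaling the first probe was still higher than in the control, by 0.27 at 35 nmol and by 0.18 at 70 nmol, the second of these below the scanner error. Fcgr2b is also a receptor of B cells and mast cells, whose summed markers were lower at both doses than in the control (B cell markers 226 at 70 nmol and 274 at 35 nmol, against 287 in the control). The part of these cells in the Fcgr2b level was not tested.

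**Figure D2:**
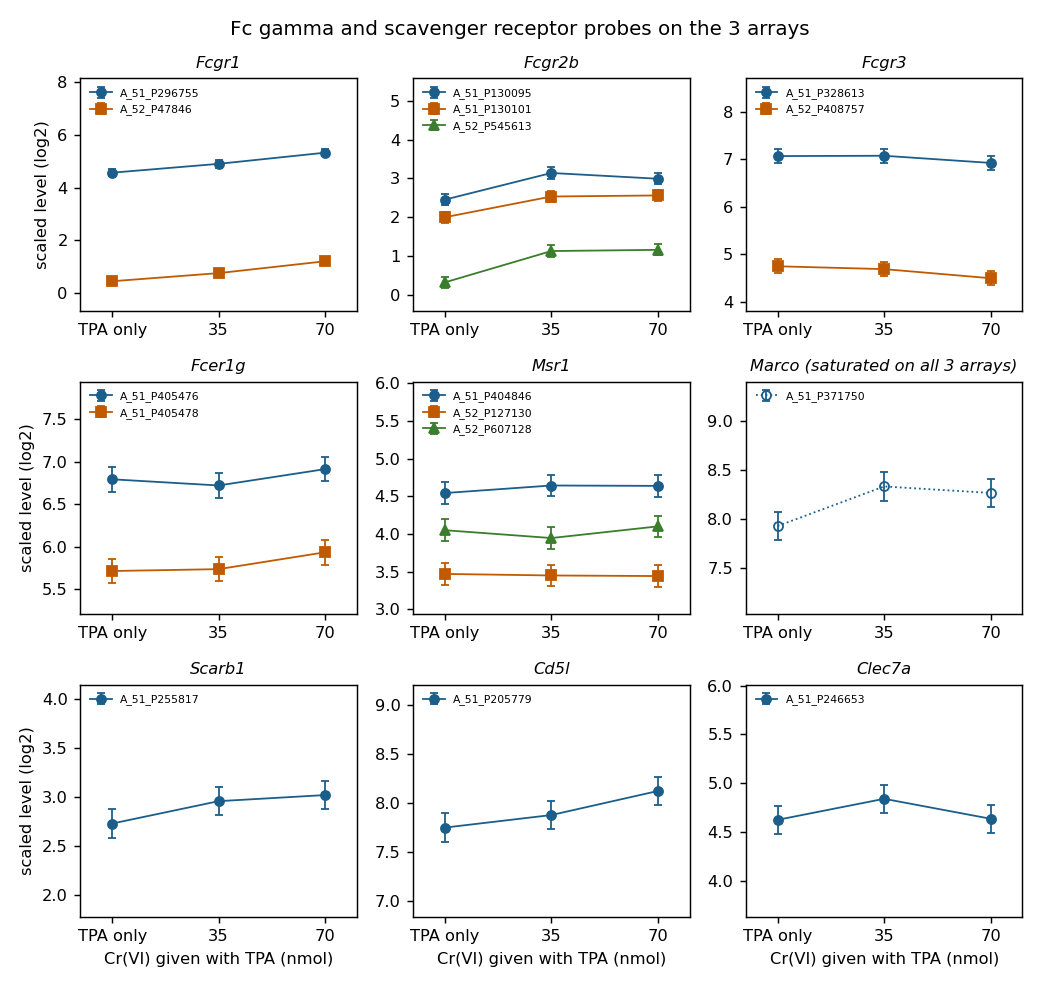
Level of every probe of the 9 members on each array. The horizontal axis gives the Cr(VI) dose in nmol, with TPA alone at the left, and the vertical axis the scaled level (log2), with its own range in each panel. Bars are the scanner software's error. Both Fcgr1 probes are highest at 70 nmol, and all 3 Fcgr2b probes are lowest with TPA alone. Open symbols for Marco are saturated spots, whose values are lower bounds on the signal.

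The receptors of one family can be set against each other without regard to the scaling constant, since a constant cancels when the difference of a gene is taken from that of another. At 70 nmol against the control, the difference of Fcgr1 exceeded that of Fcgr3 by 0.90, with a scanner error of 0.289. It exceeded that of Fcer1g by 0.64 and that of Fcgr2b by 0.22, the second within the scanner error. The order of Fcgr1 and Fcgr2b at 70 nmol also depends on the probe. On the Fcgr2b probe A_52_P545613 the difference was 0.84, above the 0.76 of both Fcgr1 probes. The difference of Fcgr2b exceeded that of Fcgr3 by 0.68 at 70 nmol and by 0.68 at 35 nmol. At 35 nmol the difference of Fcgr1 was below that of Fcgr2b by 0.35, giving a gap of -0.35. Between doses, the difference of Fcgr1 exceeded that of Fcgr2b by 0.57. On these arrays Fcgr1 was thus highest at 70 nmol, and Fcgr2b was as high at 35 as at 70 nmol within the scanner error. Among 3064 genes with 2 measured probes, the median gap between the probes' differences at 70 nmol was 0.16.

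Msr1, the class A macrophage scavenger receptor, differed from the control by no more than 0.10 on any of its 3 probes. The probe A_51_P404846 (in pieces between chr8:41104755-41106916) had levels of 4.54 in the control, 4.64 at 35 nmol and 4.64 at 70 nmol. The probe A_52_P127130 (chr8:41122759-41122818) had 3.47, 3.45 and 3.44. The probe A_52_P607128 (chr8:41102621-41102680) had 4.05, 3.95 and 4.10. No array was lowest or highest on all 3 probes. Differences from the control were 0.09, -0.03 and 0.05 at 70 nmol, and 0.10, -0.02 and -0.10 at 35 nmol, all below the scanner error. With spike-in scaling, the first probe differed by -0.27 at 70 nmol and by -0.32 at 35 nmol.

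Marco, another class A receptor, binds bacteria and unopsonised particles on resident macrophages. Its only probe (A_51_P371750, chr1:122302084-122302103) was saturated on all 3 arrays, with a mean signal of 65521, the top of the scanner's scale, and all 64 pixels at that ceiling. The scaled levels of 7.93, 8.33 and 8.26 (control, 35 and 70 nmol) rest on the same raw signal, so no fold can be given. The signal shows only that Marco RNA was above the measurable range in each group.

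Cd5l had levels of 7.75 in the control, 7.87 at 35 nmol and 8.12 at 70 nmol (A_51_P205779, chr3:87456828-87456887). It was thus highest at 70 nmol, by 0.37 (1.30-fold) against the control and by 0.25 against 35 nmol, and differed from the control by 0.13 at 35 nmol. With spike-in scaling the differences from the control were 0.01 at 70 nmol and -0.29 at 35 nmol. The probe was close to the ceiling: 9 of 61 pixels were saturated in the control, 0 of 64 at 35 nmol and 13 of 63 at 70 nmol, although the spot was not called saturated. The pixels at the ceiling differ in number between arrays, and their part in these differences was not tested.

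Scarb1, the receptor that exchanges cholesterol with high-density lipoprotein, had levels of 2.73 in the control, 2.96 at 35 nmol and 3.02 at 70 nmol (A_51_P255817, chr5:125566267-125566326). The control array was lowest. The difference from the control was 0.29 at 70 nmol (1.22-fold) and 0.23 at 35 nmol, and with spike-in scaling it was -0.07 and -0.19, so its sign turns with the scaling. Hepatocytes also express Scarb1. Of their 10 other listed markers, 8 were well above background in the control, 9 at 35 nmol and 1 at 70 nmol. The part of hepatocytes in the Scarb1 level was not tested.

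Clec7a had levels of 4.63 in the control, 4.84 at 35 nmol and 4.64 at 70 nmol (A_51_P246653, chr6:129427414-129427473). The 35 nmol array was highest. The difference from the control was 0.01 at 70 nmol and 0.21 at 35 nmol, and the 70 nmol array differed from the 35 nmol array by -0.20. These 0.21 and -0.20 are about as large as the scanner error. With spike-in scaling the differences from the control were -0.35 at 70 nmol and -0.20 at 35 nmol.

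**Figure D3:**
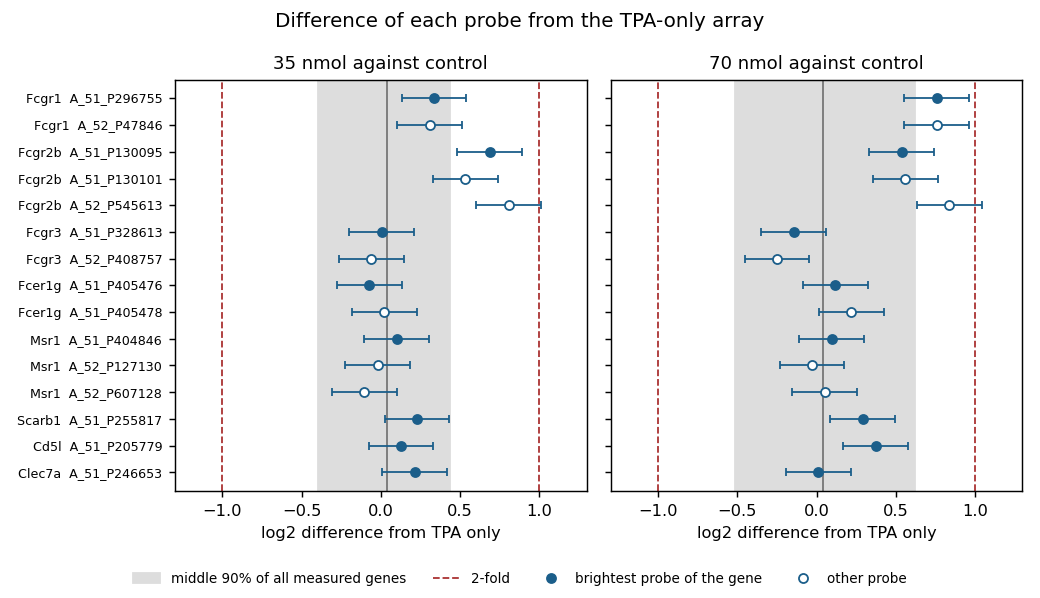
Log2 difference of each measured probe from the TPA-only array, at 35 nmol (left) and 70 nmol (right). Filled points are the brightest probe of a gene, open points its other probes, bars the scanner error, the grey band the middle 90% of all measured genes and the grey line their median. The Fcgr1 and Fcgr2b points lie furthest right, and none of the points reaches 2-fold. With spike-in scaling all points move left, by 0.42 (35 nmol) and 0.36 (70 nmol), and the points that then stay right of 0 are those of Fcgr2b at both doses and of Fcgr1 and Cd5l at 70 nmol.

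Of the 9 members, 8 could be measured, Marco being saturated. At 70 nmol against the control, 0 of the 8 passed 2-fold in either direction, where 1.63% of 12541 measured genes passed 2-fold upward and 1.08% downward. At 35 nmol it was 0 of 8 in either direction, where 1.12% of 12730 genes were higher and 0.299% lower. At 70 against 35 nmol it was again 0 of 8, where 0.92% of 12387 genes were higher and 0.718% lower. A count of 0 among 8 genes lies near what these shares give and is not a result about the members. At a threshold of 1.5-fold and at each gene's brightest probe, Fcgr1 alone was higher at 70 nmol, where 5.55% of all genes were. Fcgr2b alone was higher at 35 nmol, where 2.96% were. The median difference of the 8 members was 0.21 at 70 nmol and 0.17 at 35 nmol, beside 0.04 and 0.04 over all measured genes. With quantile normalisation the members' medians were 0.11 and 0.07, with cyclic loess 0.09 and 0.05, and with normexp background correction 0.15 and 0.09. With spike-in scaling they were -0.15 and -0.25, beside -0.32 and -0.38 over all genes. Between doses the median was 0.03, beside 0.00. At 70 nmol the middle 90% of all measured genes spanned -0.51 to 0.62, and Fcgr1 lay above that range. Fcgr2b lay within it at its brightest probe (0.54) but above it on the probe A_52_P545613 (0.84). At 35 nmol the middle 90% spanned -0.40 to 0.43, and Fcgr2b lay above that range.

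**Figure D4:**
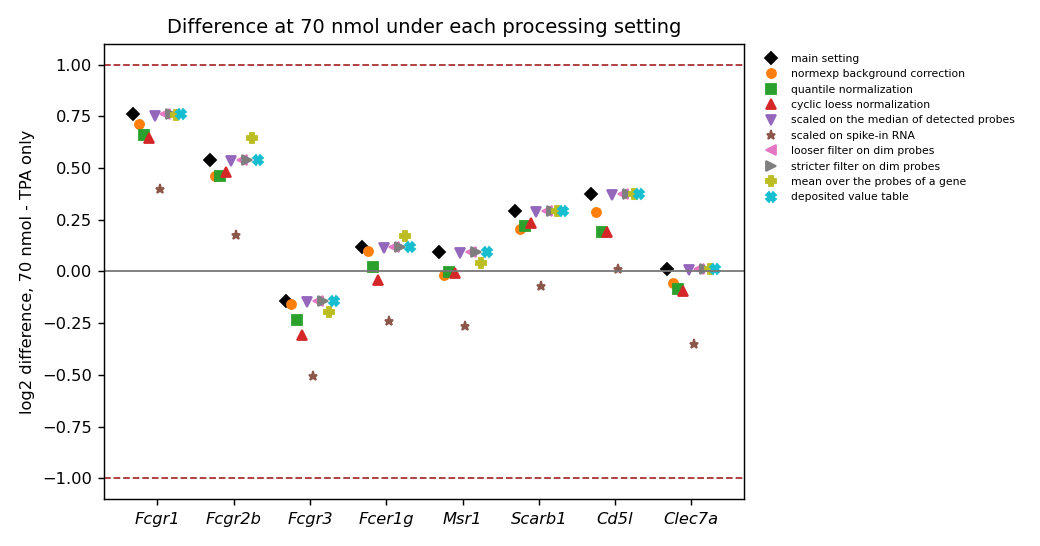
Log2 difference of each measured member at 70 nmol from the TPA-only array under the main setting and 9 alternatives. Dashed lines mark 2-fold. Fcgr1 lies between 0.65 and 0.76 and Fcgr2b between 0.46 and 0.65 in all settings but spike-in scaling (star), where they are 0.40 and 0.18. Fcgr3 lies below 0 in every setting, and the sign of Fcer1g, Msr1, Scarb1 and Clec7a turns in at least 1.

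Genes that work with the members were listed in 6 groups, with no member among them, and their counts at 2-fold are read beside the same shares of all genes. Counts with spike-in scaling are read beside that scaling's own counts of all genes, given after the lists. Among activating Fc receptor signalling genes, 23 were measured, and at each dose 0 passed 2-fold upward and 1 downward. The gene that was lower was Fcer1a, the IgE-binding chain of the mast cell receptor, with levels of -1.65 in the control, -2.73 at 35 nmol and -2.92 at 70 nmol. Its difference from the control was -1.28 at the higher dose and -1.09 at the lower dose, and the other 5 mast cell markers above background were lower as well. Fcgr4, an activating IgG receptor that also needs Fcer1g, had 5.08, 5.44 and 5.74. It was lowest in the control and highest at 70 nmol, like Fcgr1, by 0.67 at 70 nmol and 0.36 at 35 nmol. With spike-in scaling its 35 nmol difference lies below 0. Fgr, a Src-family kinase, differed by 0.50 and 0.07, and Cblb, a ubiquitin ligase that dampens receptor signalling, by -0.06 and -0.43. The median of the list was 0.12 at 70 nmol and 0.03 at 35 nmol, and -0.24 and -0.39 with spike-in scaling.

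Of 24 measured genes listed with inhibitory receptors, the class to which Fcgr2b belongs, and phosphatases, 2 passed 2-fold upward at 70 nmol and 1 at 35 nmol, and 0 downward. The list also holds other genes, such as the activating receptors Pilrb1 and Cd300ld and the adaptors Dok1, Dok2 and Dok3. Its counts and median are thus not those of inhibitory receptors and phosphatases alone. Lair1, an inhibitory collagen receptor, had levels of 3.47 in the control, 3.99 at 35 nmol and 4.59 at 70 nmol. Clec4a2, an inhibitory lectin, had 2.47, 2.96 and 3.73. Both were highest at 70 nmol, by 1.12 and 1.26 against the control, and their other probes gave 1.26 to 1.30 and 1.52. Cd72, an inhibitory receptor known from B cells, differed by 0.90 at 70 nmol and 0.26 at 35 nmol. The summed B cell markers were lower at 70 nmol than in the control, and their part was not tested. Siglecf, known from eosinophils, had a difference of 1.44 at 35 nmol and 0.36 at 70 nmol. Between doses it differed by -1.09, lower at 70 than at 35 nmol. At each gene's brightest probe, Siglecf was the only gene of the list past 2-fold between doses. The other probe of Clec4a2 and the higher of the other Lair1 probes were also past 2-fold between doses, upward. The list's median was 0.22 at 70 nmol and 0.11 at 35 nmol. With spike-in scaling it was -0.14 and -0.31, and neither Lair1 nor Clec4a2 was past 2-fold.

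Other receptors that pair with such signalling adaptors, listed with the adaptors Tyrobp and Hcst and the actin regulator Nckap1l, numbered 11 measured genes. At 70 nmol 1 passed 2-fold upward and 0 downward, and at 35 nmol 0 upward and 1 downward. Cd300c2 had levels of 3.94 in the control, 4.32 at 35 nmol and 5.29 at 70 nmol, a difference of 1.35 at 70 nmol, and 1.17 on its other probe. Trem2, a lipid receptor of macrophages, differed by 0.85 at 70 nmol and 0.33 at 35 nmol. Treml4 differed by 0.68 and 0.47. Trem3 was the gene at least 2-fold lower at 35 nmol, by a difference of -1.02, with -0.36 at 70 nmol. The list's median was 0.19 at 70 nmol and 0.09 at 35 nmol. With spike-in scaling it was -0.17 and -0.33, and Cd300c2 was not past 2-fold.

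Of 16 other scavenger receptors measured at 70 nmol, 3 passed 2-fold upward and 1 downward, and of 17 at 35 nmol 2 did upward and 0 downward. Olr1, a receptor for oxidised low-density lipoprotein, had levels of -2.32 in the control, -1.19 at 35 nmol and -0.86 at 70 nmol, a difference of 1.46 at 70 nmol and 1.13 at 35 nmol. Cd163, the haemoglobin-haptoglobin receptor, had -2.94, -3.05 and -1.79, so that only the 70 nmol array stood apart, by 1.15 against the control and 1.26 against 35 nmol. Stab1, which takes up modified proteins, had 0.70, 1.31 and 1.84 on its brighter probe, a difference of 1.14 at 70 nmol, while its other probe gave 0.39. Colec12, a collectin known from endothelium, differed by -1.09 at 70 nmol and -0.61 at 35 nmol, and Stab2, known from liver endothelium, by 0.31 and 1.09. The list's median was 0.34 at 70 nmol and 0.10 at 35 nmol. With spike-in scaling it was -0.02 and -0.32, Olr1 alone stayed past 2-fold upward at 70 nmol and 0 genes at 35 nmol, and Colec12 was past it downward at both doses. Apart from Stab1, the genes of this list at least 2-fold different were dim, with all their levels below 0.

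Of 16 genes measured at 70 nmol that are lectins related to Clec7a or lie beside it, as the autophagy gene Gabarapl1 does, 3 passed 2-fold upward and 1 downward, and of 15 measured at 35 nmol 0 did in either direction. Mrc1, the macrophage mannose receptor, had levels of 0.31 in the control, 0.73 at 35 nmol and 1.90 at 70 nmol, a difference of 1.59 at 70 nmol and 0.42 at 35 nmol. Clec4b1 had 0.62, 1.25 and 2.00, and Clec4n, also called Dectin-2, had -0.48, 0.21 and 0.65. Both were highest at 70 nmol, by 1.38 and 1.13 against the control. Cd209b, a lectin known from marginal zone macrophages of the spleen, had 2.05, 2.48 and 0.60. It was lowest at 70 nmol, by a difference of -1.45 from the control, and -1.53 on its other probe. Clec4f, a lectin of Kupffer cells, was well above background only at 35 nmol, where it was at least 3.19-fold higher than in the control. At 70 nmol Clec4f was lower than at 35 nmol by at least 2.43-fold. The Kupffer cell markers listed did not share this direction. Of 4 others measured at 35 nmol, members left out, 1 was above the control, with a median difference of -0.11. The median of the genes listed with Clec7a was 0.28 at 70 nmol and 0.18 at 35 nmol. With spike-in scaling it was -0.08 and -0.24, and Clec4n was no longer past 2-fold. Clec7a itself, at 0.01 and 0.21, lay below the median of this list at 70 nmol and above it at 35 nmol.

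Among 12 genes of high-density lipoprotein and cholesterol handling measured at 70 nmol, the partners of Scarb1, 1 was at least 2-fold higher and 0 lower. It was Nr1h3, the sterol-sensing nuclear receptor LXR alpha, with levels of 1.42 in the control, 1.60 at 35 nmol and 2.45 at 70 nmol, a difference of 1.03 at 70 nmol. Apoc1, a lipoprotein protein of macrophages and liver, differed by -0.78 at 70 nmol and -0.02 at 35 nmol. Of 14 measured at 35 nmol, 2 were higher, Apoa1 by 1.67 and Ces1d by 1.70. Both are liver genes, neither was well above background at 70 nmol, and there they were at least 2.84-fold and 1.75-fold lower than in the control. These bounds set the control signal against the lowest signal well above background on the 70 nmol array. The summed hepatocyte markers, Apoa1 among them, moved the same way (59.9 at 35 nmol against 20.4 in the control), and their part was not tested. The list's median was 0.25 at 70 nmol and 0.11 at 35 nmol. With spike-in scaling it was -0.11 and -0.31, Nr1h3 was not past 2-fold, and Apoc1 was, downward at 70 nmol.

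Over all lists, which were chosen with earlier results known, 10 of 102 measured genes passed 2-fold upward at 70 nmol and 3 downward, and with spike-in scaling 3 and 4. Over all measured genes, 204 (1.63%) and 136 (1.08%) of 12541 did, and with spike-in scaling 87 and 400. At 35 nmol 5 of 104 were higher and 2 lower, and 3 and 3 with spike-in scaling. Over all measured genes it was 143 (1.12%) and 38 (0.299%) of 12730, and with spike-in scaling 71 and 251. Olr1, Mrc1 and Clec4b1 were the 3 at least 2-fold higher than in the control at 70 nmol under both scalings.

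**Figure D5:**
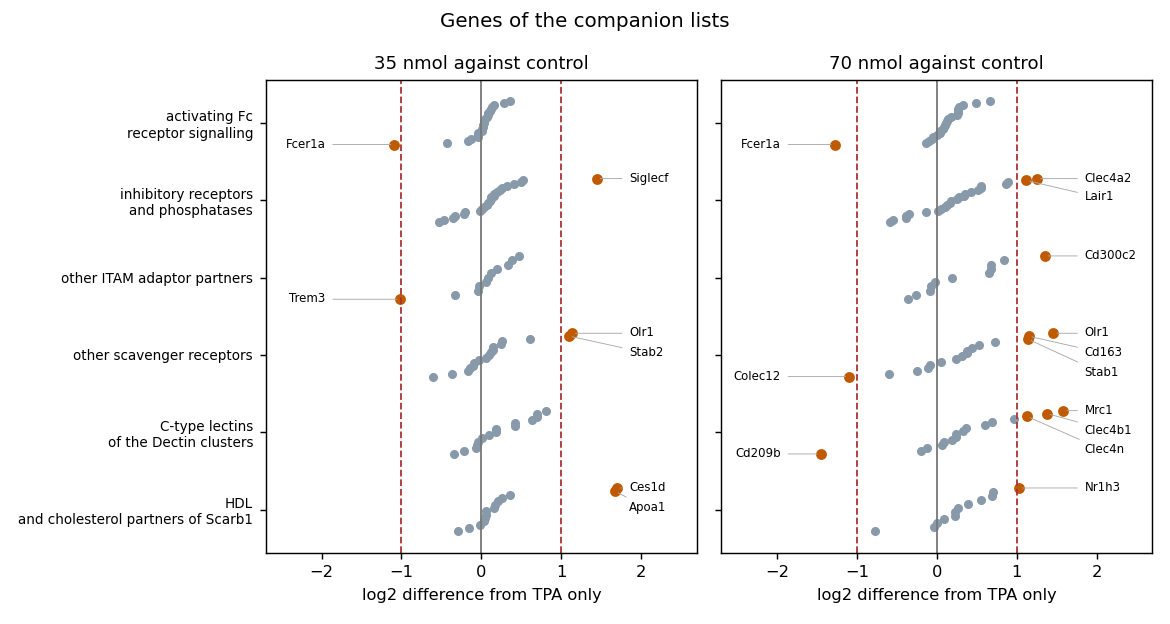
Log2 difference from the TPA-only array of the measured genes of the 6 companion lists, at 35 nmol (left) and 70 nmol (right). Each point is a gene at its brightest probe, sorted by value within its list, dashed lines mark 2-fold and orange points lie at or past them. At 70 nmol 10 points lie past 2-fold on the right, and 3 of them with spike-in scaling, which moves every point left by 0.36.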

How the data were processed

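RNA of peritoneal cells was measured on 3 one-colour arrays, 1 for each group. The deposited spot intensities came from Agilent Feature Extraction 10.5.1.1, which subtracted background, and probe positions are of build mm8, per the file headers. The software's own flag (multiple of 13) set which spots were well above background. The value table that the authors deposited is on the log2 scale and equals the log2 processed signal minus 1 constant per array (8.00, 7.61 and 7.67) within 0.01 for 99.8% or more of probes well above background. The medians of its columns were -3.60, -3.74 and -3.78. This settles its scale and direction and shows no centring of genes.

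Here the processed signal, on the log2 scale, was set against each array's 75th percentile over 43379 spots that are not controls. Outlier spots were left out and spots of a probe averaged. Probes were named through their accession in a RefSeq table (GRCm38.p6, 24375 probes), otherwise by symbol or by a synonym of only 1 gene. Where none matched, the name in the array file was kept (8072 probes). Such names count as genes in the totals of all genes. A gene's value is that of its brightest probe, and a gene was measured in a comparison where both arrays had that probe well above background and not saturated. With 1 array per group there is no test. Called means at least 2-fold. Members, gene lists (6 companion, 15 cell type) and motifs were chosen with earlier results of these data known. The text names all members, up to 4 genes of each companion list with the largest difference, and any of them at least 2-fold different, bounds included. Only the difference and the 2-fold call were tested on simulated data, with noise below the scanner error and no spread between animals. Scaling, naming, filters and the motif search were not tested. Alternatives were normexp (offset 50), quantile or cyclic loess normalisation, detected probes or spike-in RNA (4 of 10 probes) as the scale, other filters (stricter: 4 times the lowest signal well above background), the mean over probes, the deposited table, and thresholds of 1.5-fold and 3-fold. Software was R 4.3.3 (limma 3.58.1) and Python 3.11.15 (pandas 2.3.3, numpy 2.4.6, matplotlib 3.10.9).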

Additional observations from a re-analysis of the deposited data

Results flagged for a closer look

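Cd209b, a lectin of the companion lists, lay on opposite sides of the control at the 2 doses. Its difference from the control was -1.45 at the higher and 0.43 at the lower dose, which put the 70 nmol array below the 35 nmol array by a difference of -1.87 (scanner error of each difference from the control 0.205 and 0.204). Its other probe gave -1.53 and 0.25. With spike-in scaling, which subtracts 0.42 at 35 nmol, the 35 nmol difference is about 0 on the brighter probe and below 0 on the other, so that the opposite directions are lost. The difference between doses was not tested, since each group had 1 array.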

How the results depend on the processing

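No paired analysis was possible because each group had 1 array. Of 294 values under alternatives, 274 moved by less than the median scanner error of all measured genes or kept their count, and 20 moved further. Many of the 274 could hardly move. Both filters left every member's difference as it was, and the deposited table holds the same signal minus a constant. The limit is also wide, as the members' median at 70 nmol counted as unmoved when cyclic loess took it from 0.205 to 0.0902. As no member passed 2-fold, no called value could turn. The sign of a member's difference, called or not, turned in 28 of 216 values, 11 of them under spike-in scaling. Of the 20, 18 were under spike-in scaling, which by construction subtracts a constant: the members' median became -0.155 at 70 nmol and -0.248 at 35 nmol. The other 2 were counts at 1.5-fold, 1 at 70 nmol and 1 at 35 nmol in place of 0. The gaps between receptors do not depend on a scaling constant. Over the alternatives other than spike-in scaling, Fcgr1 ranged from 0.22 to 0.35 at 35 nmol and Fcgr2b from 0.59 to 0.70. Counts of all genes at least 2-fold higher and lower at 70 nmol were 204 and 136, but 80 and 48 with normexp, 619 and 742 with the looser filter, 109 and 50 with the stricter filter, and 87 and 400 with spike-in scaling. At 35 nmol they were 143 and 38, but 55 and 10, 577 and 541, 50 and 13, and 71 and 251 in the same order, and at 70 against 35 nmol 114 and 89, but 39 and 20, 527 and 520, 52 and 23, and 132 and 75. The members stayed at 0 of 8 at 2-fold in each of these. With the mean over probes, 2 members were at least 1.5-fold higher at 70 nmol. Saturation limits Marco and may limit Cd5l.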
